A study of Mus musculus with 168 samples.

Results

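Tetraspanins are small proteins with 4 membrane-spanning segments, and 9 genes of this family (Cd9, Cd81, Cd63, Cd82, Cd151, Tspan3, Tspan7, Tspan12 and Tspan33) were followed across individual cells of the old mouse brain. They were taken by name from a list and make up 9 of the 43309 gene identifiers in the deposited tables. All 9 matched exactly 1 identifier each. The cells came from old male C57BL/6 mice, for which the labels name no transgene and no treatment. Neural stem cells were sorted as GLAST+ CD133+ CD45- O4- from the subventricular zone (SVZ), the germinal tissue lining the lateral ventricle, of 4 pooled mice labelled 23 months (22 in the protocol). They carry 2 series of names, ogp with 68 cells and ogp2 with 65, which were pooled unless stated. Astrocytes labelled 25 months and sorted as GLAST+ CD45- O4- came from striatum (13 cells, of which 11 are named OGStr and 2 OStr) and somatosensory cortex (4 cells named OCx), from pools of 3 to 4 mice. Every cell was picked by hand and read by Smart-seq2, a method that sequences whole transcripts of 1 cell.

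No animal is named for any cell, so each tissue is 1 sample, no difference was tested, and every SD below is a spread between cells. Values are in TPM, a unit in which reads are divided by gene length and the transcripts of a cell sum to 1000000, so levels of different genes can be set side by side. TPM keeps no read counts, and sequencing depth could not be read from it. The number of genes reaching 1 TPM had a median of 3479 in SVZ, 3636 in striatum and 3387.5 in cortex. Of 12 markers of astrocytes and quiescent stem cells, 12 averaged 10 TPM or more in each tissue. Of 10 microglial markers, 9 stayed under 1 TPM in every striatum cell and in every cortex cell, the exception being P2ry12, which averaged 32.2 TPM in striatum (3 cells), 59.3 in cortex (1 cell) and 15.2 in SVZ. The summed endothelial markers reached at most 28.9 TPM in any cell. The 6 ependymal markers summed to at most 2255 TPM in an SVZ cell, 785.9 in striatum and 71.7 in cortex. Among them only Rarres2 averaged 10 TPM or more. Over SVZ cells the rank correlation (Spearman's rho) of this sum with each of the 9 genes ran from -0.04 (Cd151) to 0.29 (Tspan3). The part of ependymal transcripts in the differences was not tested. The summed markers of the oligodendrocyte lineage had a median of 395 TPM in cortex, 171 in striatum and 167 in SVZ, with Olig1 and Olig2 at means of 210.9 and 73.2 TPM in cortex and 7.26 and 0 in striatum, and their part in the differences was not tested. In 6 SVZ cells the markers of microglia (1 cell) or of the oligodendrocyte lineage (5 cells) summed to over 1000 TPM. Leaving these 6 out changed none of the counts of members for striatum or cortex against SVZ cells or for ribosome-rich against low-ribosome SVZ cells. Age, sort gate and deposited table differ between astrocytes and SVZ cells, and their parts in any difference between those groups cannot be told apart.

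Tetraspanins bind one another and neighbouring membrane proteins, such as integrins, immunoglobulin-domain proteins, receptors and proteases, and gather them into patches of the cell membrane. The larger of their extracellular loops carries a Cys-Cys-Gly sequence that helps to fold it and defines the family. Cd9 and Cd81 act at the cell surface and both bind Igsf8, Cd63 cycles through late endosomes and is a common mark of exosomes, Cd151 binds laminin-binding integrins, Tspan12 is a coreceptor for the ligand Norrin, and Tspan33 guides the protease Adam10 to the cell surface.

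The Cys-Cys-Gly codons are the feature that all 9 genes share in sequence, and they are printed here with the 9 bases on either side, read from GENCODE M21 transcripts (GRCm38), on the coding strand, 5′ to 3′, with the 3 codons in capitals.
Cd9, from codon 150: gcgttggacTGCTGTGGCatagctggt
Cd81, from codon 156: acgctcaacTGTTGTGGCtccaacgca
Cd63, from codon 145: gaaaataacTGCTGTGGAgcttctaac
Cd82, from codon 149: caggtcaagTGCTGTGGCtgggtcagc
Cd151, from codon 155: gagttccacTGTTGTGGCagcaacaac
Tspan3, from codon 147: cagttgcacTGTTGTGGAattcataac
Tspan7, from codon 150: agcctgagcTGCTGTGGCgtgcagaac
Tspan12, from codon 159: gagtttaagTGCTGTGGAgtggtgtac
Tspan33, from codon 156: aagttcagcTGCTGTGGAgggatctcc
The in-frame letters searched were TGTTGTGGN, TGTTGCGGN, TGCTGTGGN and TGCTGCGGN. They occurred in 9 of 9 members, in 22 of 22 other tetraspanins and in 551 of 21721 protein-coding genes (2.54%). The copy shown starts between 52.1% and 66.4% of the way along each coding sequence. Cd9, Cd63 and Cd81 hold a further copy outside this stretch, at codons 76, 72 and 227.

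The genes lie apart in the genome, on 6 chromosomes (GRCm38). Cd9 spans chr6:125460266-125494791 on the minus strand, Tspan12 spans chr6:21771395-21852515 (minus) and Tspan33 spans chr6:29694222-29718559 (plus). Cd81 spans chr7:143052739-143067934 (plus) and Cd151 spans chr7:141467392-141471473 (plus). Cd63 is at chr10:128900989-128912822 (plus), Cd82 at chr2:93419111-93463140 (minus), Tspan3 at chr9:56131725-56165477 (minus) and Tspan7 at chrX:10485158-10596605 (plus). Smart-seq2 does not mark strand, so reads of a gene and of an antisense gene that overlaps it cannot be told apart. The antisense genes annotated over members and listed in the tables were low beside them: R74862 over Cd81 averaged 10.6 TPM in SVZ cells, and Gm28809 and Gm26728 over Cd9 averaged 2.01 and 1.04 TPM.

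Tspan7, which is abundant in brain and mutated in an X-linked intellectual disability, was the highest member in SVZ cells, at 5775 TPM (SD 3546, n = 68 ogp and 65 ogp2 cells). Cd81 followed at 4349.6 TPM (SD 2463), Cd63 at 1644 (SD 947), Tspan3 at 1291 (SD 767) and Cd9 at 914 (SD 704). These 5 were at 1 TPM or more in every SVZ cell (exact 95% Clopper-Pearson interval 97.3 to 100%, which covers counting error only). Tspan12 averaged 250 TPM (SD 259) and was detected at that limit in 99 cells (74.4%, interval 66.2 to 81.6). The other members were each found in a minority of SVZ cells. Cd82 averaged 56.4 TPM with 26 cells (19.5%, 13.2 to 27.3), Cd151 averaged 43.4 TPM with 31 cells (23.3%, 16.4 to 31.4) and Tspan33 averaged 17.2 TPM with 17 cells (12.8%, 7.63 to 19.7). Cd81 exceeded Cd63 by more than the SD of either, and all other neighbours in that order lay closer together than the larger of their 2 SDs.

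**Figure D1:**
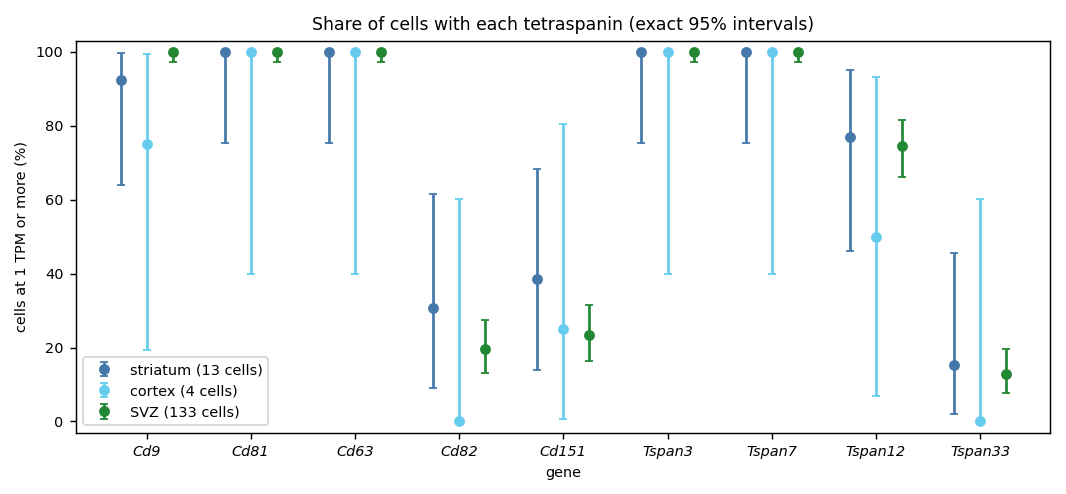
The share of cells (%, y axis) with 1 TPM or more of each tetraspanin (x axis) is shown for striatum, cortex and SVZ, with bars for exact 95% intervals that cover counting error only. Cd81, Cd63, Tspan3 and Tspan7 were found in every cell of all 3 tissues, and Cd82 and Tspan33 in no cortex cell.

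Striatal astrocytes kept the same order of mean levels as SVZ cells, from Tspan7 at 3893 TPM (SD 1258, n = 13 cells) and Cd81 at 3772 (SD 1273) down to Tspan33 at 10.8. In the 11 OGStr cells alone Cd81 (3927 TPM) was above Tspan7 (3738). Differences are given as the log2 ratio of group means, each with 1 TPM added, which understates the difference of low genes, among genes with 10 TPM or more in either group. Of the 9 members, 1 was at least 2-fold lower in striatum than in SVZ cells and 0 were at least 2-fold higher, where 28.3% of 9080 genes were lower by that much and 12.3% higher. The member was Cd9. The median log2 difference was -0.21 for the members and -0.26 for all genes. Cd82 (61.6 against 56.4 TPM), Cd151 (49.5 against 43.4), Tspan12 (259 against 250), Cd63 (1563 against 1644) and Cd81 gave log2 differences between -0.21 and 0.19. With OGStr cells only, these members ran from -0.37 (Cd63) to -0.13 (Cd151). Tspan12 then gave -0.34, at 197 TPM in OGStr and 602 in the 2 OStr cells. Tspan3, first described as a partner of claudin-11, averaged 911 TPM (SD 256) in striatum, a log2 difference of -0.50, and Tspan7 gave -0.57.

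In the 4 cortex cells 5 of 9 members averaged at least 2-fold less than in SVZ cells, and 0 averaged 2-fold more, where 43.4% of 8940 genes were lower and 20.7% higher by that much. The share of members is close to this background. The median was -1.88 for the members and -0.49 for all genes, and both comparisons with SVZ use the same SVZ cells. With logs averaged over cells 3 members were lower, where 28% of genes were lower and 26.4% higher, and the median was -0.57. The 5 were Cd9, Cd151, Tspan12, Cd82 and Tspan33, the last 2 of them listed at 0 in every cortex cell, which with 4 cells allows a share of up to 60.2%. Cd81 at 2762 TPM (SD 790), Cd63 at 1117 (SD 870), Tspan3 at 926 (SD 552) and Tspan7 at 6330 (SD 3854) gave log2 differences between -0.66 and 0.13. Between striatum and cortex, 5 of 9 members were at least 2-fold higher in striatum, against 38.3% of 8276 genes, and 0 were lower, against 28.9%. Both counts rest on the same 4 cortex cells, so that the same 5 members make up both is no separate evidence. A further comparison used low-ribosome SVZ cells alone, a range defined with the ribosomal values further on. By 2-fold or more, 1 member was lower and 0 higher in striatum (24.5% and 14.2% of genes). In cortex 5 were lower and 0 higher (40.8% and 22.6%). All 9 members were then below 0 in both tissues. The median was -0.49 in striatum (-0.17 for all genes) and -2.14 in cortex (-0.32). In striatum Cd82, Cd151 and Tspan12 gave -0.08, -0.07 and -0.18.

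Cd9, which links to integrins and Igsf8 at the cell surface, had the widest spread relative to its mean among the 5 abundant members, in striatum and in cortex. The 13 striatum cells ranged from 0 to 1343 TPM with a median of 164, and SVZ cells from 2.64 to 3757 with a median of 732. The 4 cortex cells held 606, 6.58, 3.18 and 0.75 TPM. Astrocytes and SVZ cells overlapped, and both tissues held cells at a high level and cells near 0. Under 100 TPM there were 4 of 13 striatum cells (30.8%, interval 9.09 to 61.4), 3 of 4 cortex cells (75%, 19.4 to 99.4) and 14 SVZ cells (10.5%, 5.88 to 17.03), a limit chosen after the values were seen because SVZ cells left a gap between 66.4 and 120.4 TPM. The log2 difference from SVZ was -1.31 for striatum (mean 367 TPM, SD 427) and -2.56 for cortex (mean 154). Among striatum cells the 2 named OStr held 1343 and 716 TPM, and the 11 named OGStr averaged 246 TPM, a log2 difference from SVZ of -1.89. In cortex the mean rests on 1 cell, OCx1, without which the difference was -7.67.

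Cd81, which like Cd9 binds Igsf8, was under 100 TPM in 0 astrocytes and in 1 SVZ cell. It ranged from 1887 to 5729 TPM in striatum with a median of 3322. In cortex the cells held 3649, 3191, 2237 and 1969 TPM. In SVZ it ran from 43.1 to 11028 with a median of 4628. Every astrocyte lay inside the SVZ range, and every astrocyte held more Cd81 than Cd9. The log2 difference from SVZ was -0.21 in striatum and -0.66 in cortex.

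**Figure D2:**
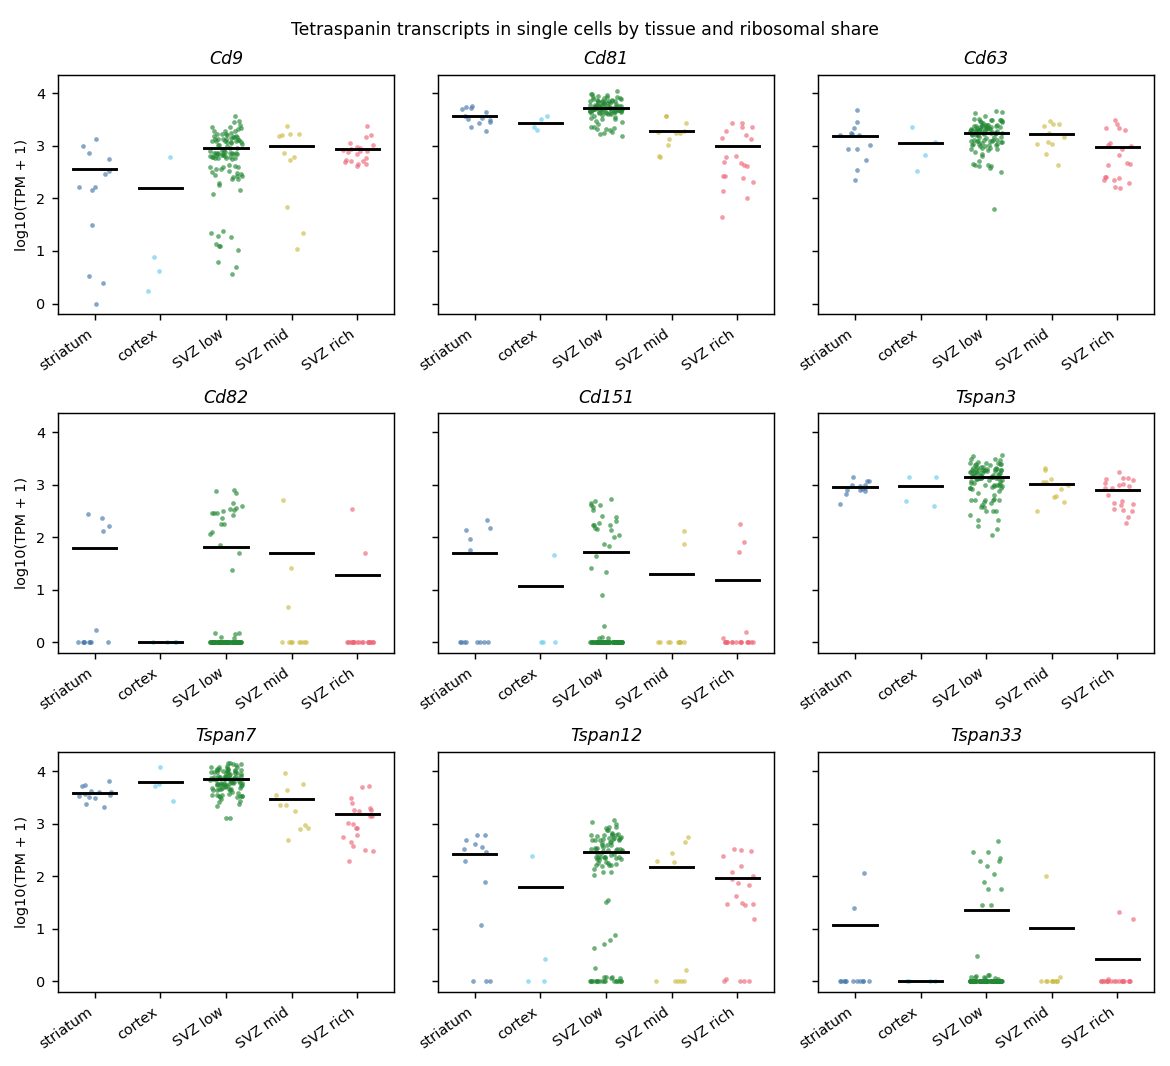
Each point is 1 cell and each black bar the log10 of (group mean TPM + 1), with log10(TPM + 1) on the y axis for each of the 9 genes. Groups are striatum (13 cells), cortex (4) and SVZ cells with a ribosomal protein share under 3% (low), from 3% to under 6% (mid, 11 cells) and of 6% or more (rich, 21 cells). Cd9 has cells under 100 TPM among astrocytes and low SVZ cells, in 3 of 11 mid cells and in 0 of 21 rich cells (interval 0 to 16.1%). Cd81 and Tspan7 are lower in rich than in low cells.

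Tspan7, Cd63 and Tspan3 were likewise found in every astrocyte. Tspan7 ranged from 2034 to 6604 TPM in striatum with a median of 3694, and the cortex cells held 2715, 5106, 5727 and 11773 TPM. Cd63 ranged from 219 to 4764 TPM in striatum with a median of 1592, and the cortex cells held 2318, 332, 1159 and 658 TPM. Tspan3 varied least in striatum, from 437 to 1425 TPM with a median of 879.9, and its cortex cells held 400, 499, 1405 and 1399 TPM. For all 3 genes each group overlapped the others, and the highest Cd63 value in striatum was in an OStr cell.

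Cd82, known as a suppressor of metastasis, was detected at high level in few cells. A listed 0 can be a failed detection, so this form cannot be told apart from a low level in many cells. The 26 SVZ cells with Cd82 had a median of 286 TPM, and most of the others were listed at 0. In striatum 4 of 13 cells (30.8%) held 132.9, 164, 227 and 276 TPM. Cd151 had the same form, with a median of 148 TPM over 31 SVZ cells and 135 over 5 striatum cells, and in cortex only OCx1 held it, at 44.2 TPM. At least 1 of Cd82, Cd151 and Tspan33 was detected in 64 SVZ cells (48.1%) and in 7 striatum cells (53.8%), and 1 cell of each of these tissues held all 3.

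Tspan12, which binds the receptor Fzd4 and raises its response to Norrin, was detected in 10 of 13 striatum cells (76.9%, interval 46.2 to 94.96) with a range from 0 to 608 TPM and a median of 290. SVZ cells ranged from 0 to 1147 with a median of 202. The cortex cells held 238, 1.61, 0 and 0 TPM, so their mean of 59.98 rests on OCx24, and the log2 difference from SVZ of -2.04 became -7.35 without it. Every striatum cell lay inside the SVZ range, and the highest SVZ cells lay above all striatum cells. Of 9 genes of Norrin signalling and its Wnt7 relatives, 5 passed 10 TPM in striatum or SVZ, and 3 of these were at least 2-fold lower in striatum. Over all genes 28.3% were lower by that much. Ndp, which encodes Norrin, averaged 72.4 TPM in striatum, 144 in cortex and 68.4 in SVZ. Wnt7a and Wnt7b averaged 6.25 and 15.9 TPM in striatum against 78.7 and 91.2 in SVZ. Ctnnb1, the beta-catenin gene, averaged 0.828 TPM in striatum, 65.4 in cortex and 91.8 in SVZ. Fzd4 itself, named here for its role after its values were seen, averaged 12.3 TPM in SVZ and was found in 14 cells.

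Tspan33 belongs to the tetraspanins that carry Adam10, the protease that makes the first cut in activated Notch. In striatum it was found in 2 of 13 cells, at 115.9 and 24.1 TPM, and in SVZ its 17 cells had a median of 100.1 TPM. It was the member that differed most between the SVZ series, at 26.5 TPM in ogp and 7.48 in ogp2. Of 11 genes for Adam10, its relative Adam17, gamma-secretase and Notch receptors, 11 passed 10 TPM, with 2 at least 2-fold higher and 1 lower in striatum than in SVZ. Over all genes 12.3% were higher and 28.3% lower. Psenen, a gamma-secretase subunit, averaged 192 TPM in striatum and 190.5 in SVZ. Ncstn, another subunit, averaged 59.6 and 51.4. Notch1 averaged 36.4 TPM in both. Adam10 itself, also named after its values were seen, averaged 52.8 TPM in striatum and 24.7 in SVZ.

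Among the 22 other tetraspanins, 10 passed 10 TPM in striatum or SVZ, and all 22 were lower in SVZ cells than the 6 highest members except Tspan31. Tspan31 was at 278 TPM in SVZ cells, 249 in striatum and 276 in cortex. Tspan15, another carrier of Adam10, was at 108.8 TPM in SVZ cells, 154 in striatum and 45.99 in cortex. Tspan14, also of that group, averaged 95.4, 32.6 and 0.795 TPM in the same order, and Tspan6 averaged 85.4, 16.2 and 80.5. Against SVZ cells 3 of the 10 were at least 2-fold lower in striatum and 1 higher (28.3% and 12.3% of all genes).

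The SVZ cells ranged widely in the share of their TPM held by 83 ribosomal protein genes, from 0.659% to 14.9% with a median of 1.83%. In the stem cell lineage ribosomal protein transcripts increase as quiescent cells activate, as background. Astrocytes ranged from 0.807% to 2.94%. Across all SVZ cells Spearman's rho with this share was -0.72 for Cd81 and -0.66 for Tspan7. Among 4553 genes found in enough SVZ cells, 1.43% had a rho of -0.5 or lower and 1.91% 0.5 or higher, and the median was 0.13. The highest member stood at 0.01, so none was among the latter. Tspan3 and Tspan12 followed at -0.37 each and Cd63 at -0.25. Cd82 (-0.14), Tspan33 (-0.12), Cd151 (-0.01) and Cd9 (0.01) lay near 0. These are descriptions over cells that share pooled mice and a closed sum of TPM. The number of genes per cell moved with the share as well (rho 0.63), and with Cd81 (-0.60) and Tspan7 (-0.62), and its part in these relations was not tested.

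Within each name series the relation of Cd81 was -0.78 in ogp (68 cells) and -0.61 in ogp2 (65), and that of Tspan7 was -0.73 and -0.56. For Cd9 the sign differed, at -0.16 in ogp and 0.22 in ogp2, and Cd63 gave -0.45 and -0.03. Among the 46 ogp and 55 ogp2 cells with a share under 3%, Cd81 gave -0.42 and Tspan7 -0.37. In the 96 SVZ cells with fewer than 4000 genes, a limit chosen after the values were seen, Cd81 gave -0.53 and Tspan7 -0.42. In 4 equal bins of SVZ cells, of 33 or 34 cells each, from the lowest to the highest ribosomal share, mean Cd81 was 6471, 4899.96, 4552 and 1411 TPM and mean Tspan7 was 7941, 7204, 5722 and 2167 TPM. Mean Cd63 was 1707, 2089, 1593 and 1186 TPM. Tspan12 was 435, 218, 213 and 127.9 TPM, so most of its difference lay between the lowest bin and the next. Cd9 was 968, 837, 878 and 973 TPM.

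**Figure D3:**
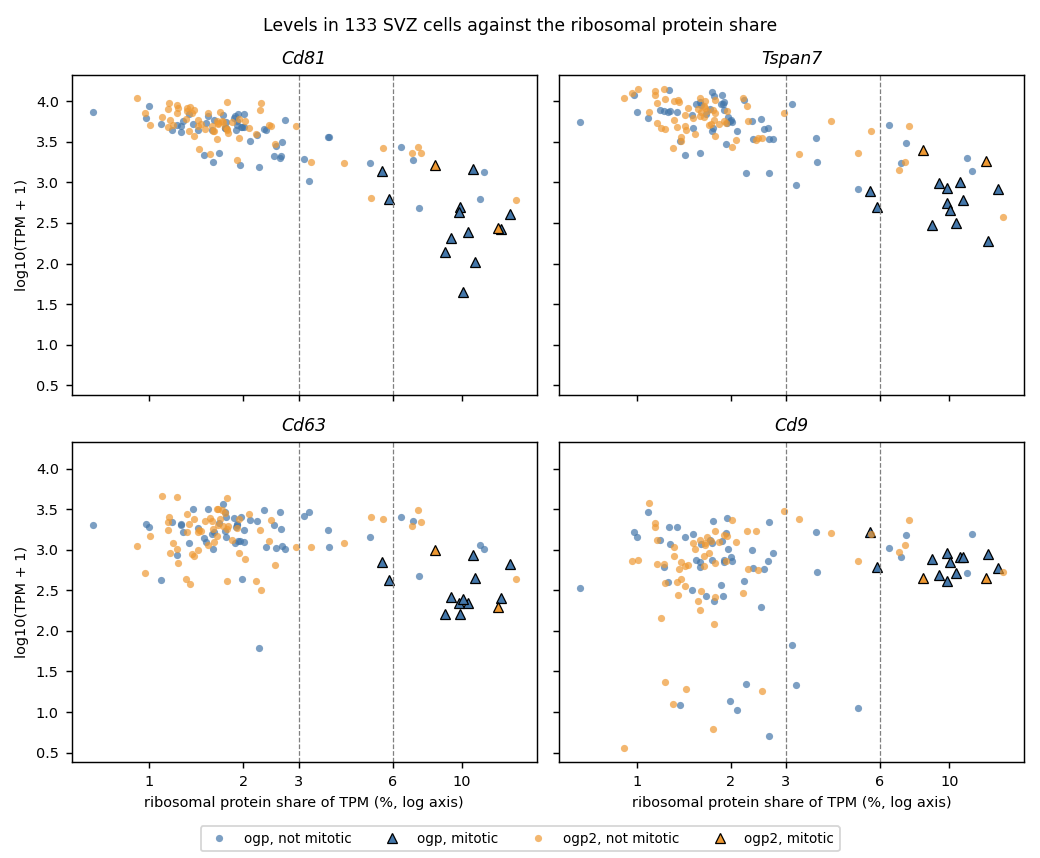
Each point is 1 SVZ cell, with the ribosomal protein share of TPM on a log x axis and log10(TPM + 1) of Cd81, Tspan7, Cd63 and Cd9 on the y axis. Colours are the ogp and ogp2 series, triangles are mitotic cells, and dashed lines mark 3% and 6%. Cd81 and Tspan7 are lower at higher share, and low Cd63 at high share is found mostly in mitotic cells.

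For a comparison of levels the SVZ cells were set in ranges of this share: low-ribosome cells (under 3%, 46 ogp and 55 ogp2 cells), 11 intermediate cells and 21 ribosome-rich cells (6% or more). These are ranges of a score and not cell types. There were 11 cells between 2.5% and 3.5% and 8 between 5% and 7%. In the ribosome-rich cells the 9 markers of activated stem cells summed to a median of 2042 TPM, against 51.03 in low-ribosome cells, and the 12 astrocyte and quiescence markers summed to 8389 against 124683. Mitotic cells, those with 3 or more of 23 G2 and M phase genes at 10 TPM or more, made up 12 of the 21. Of these 21 cells 15 were ogp and 6 ogp2.

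Of the 9 members, 6 were at least 2-fold lower in ribosome-rich than in low-ribosome cells and 0 were higher, where 23% of 9283 genes were lower and 26.8% higher by that much. The median was -1.75 for the members and 0.16 for all genes. Cd81 averaged 986 TPM (SD 925) against 5316 (SD 1935), a log2 difference of -2.43, and Tspan7 averaged 1532 (SD 1392) against 6967 (SD 3066), a difference of -2.18. Both differences exceeded the SD between cells of either range. Tspan12 gave -1.65 (92.7 against 293 TPM), Cd82 -1.76, Cd151 -1.75 and Tspan33 -3.08, the last 3 from 2, 3 and 2 of 21 rich cells. In ogp2 cells alone Cd82 was higher in the rich cells (0.36). Cd63 (-0.92) and Tspan3 (-0.85) did not reach 2-fold, and Cd9 averaged 869 TPM (SD 472) against 916 (SD 736), a difference of -0.07. With logs averaged over cells the Cd9 value was 0.62, since the cells near 0 then weigh more, and the median of the members was -0.99. By that average 58.1% of the 9283 genes were at least 2-fold higher in rich cells and 8.47% lower, so 0.62 does not set Cd9 above most genes.

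The 11 intermediate cells lay between the ranges for Cd81, at 1895 TPM (SD 1046), and for Tspan7, at 2931 (SD 2666). Of the members 4 were at least 2-fold lower in them than in low-ribosome cells and 0 higher, where 18.9% and 29.2% of genes were. Summed over the 9 members, tetraspanin transcripts took a median of 1.65% of TPM in low-ribosome cells, 0.900% in intermediate and 0.354% in ribosome-rich cells, and 1.05% in striatum and 1.03% in cortex. Genes reaching 1 TPM numbered 3217 in the median cell of the low range and 6285 in that of the rich one. TPM gives shares and not amounts, so fewer tetraspanin transcripts per cell and more of other transcripts cannot be told apart.

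Because Cd81 was lower and Cd9 was not, their order differed between ranges. Cd9 exceeded Cd81 in 12 of 21 ribosome-rich cells (57.1%, interval 34.02 to 78.2), in 3 of 11 intermediate cells (27.3%, 6.02 to 60.97) and in 1 low-ribosome cell (0.990% of them, 0.0251 to 5.39). It did so in 0 of 17 astrocytes. The median log2 of Cd9 over Cd81 within a cell was 0.22 in the rich, -0.76 in the intermediate and -2.82 in the low range, and -3.99 in striatum. By series, 10 of 15 rich ogp cells and 2 of 6 rich ogp2 cells had more Cd9. Among rich cells, 9 of 12 mitotic cells (75%, 42.8 to 94.5) and 3 of 9 others (33.3%, 7.49 to 70.1) did. Their median log2 values were 0.99 and -0.28. Cd9 was also the highest of the 9 members in 7 of 21 rich cells, 6 of them mitotic, in 2 intermediate cells and in 0 low-ribosome cells. Its lowest rich cell held 407 TPM. Under 100 TPM of Cd9 there were 0 of 21 rich cells (interval 0 to 16.1%) and 3 of 11 intermediate cells (27.3%, 6.02 to 60.97). In the low range 11 cells were under 100 (10.9%, 5.56 to 18.7), and these intervals overlap.

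**Figure D4:**
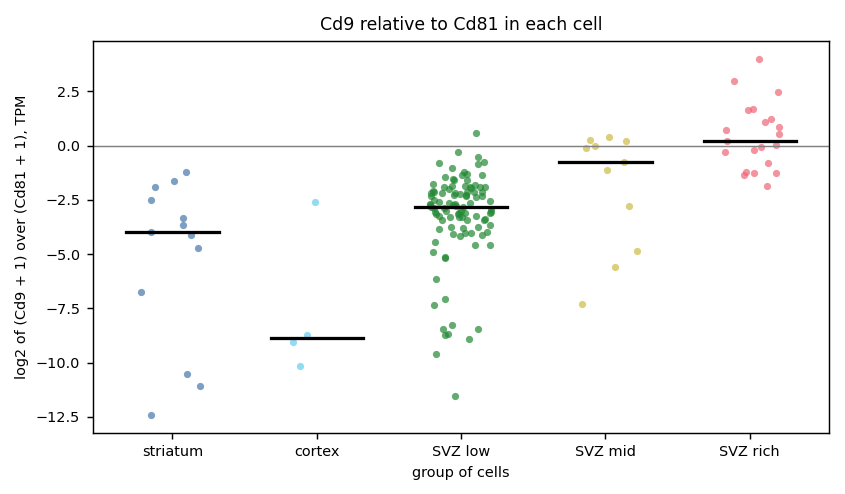
Each point is 1 cell, with log2 of (Cd9 TPM + 1) over (Cd81 TPM + 1) on the y axis, a black bar at the median of each group and a grey line at equal levels. The value is above 0 in 12 of 21 ribosome-rich SVZ cells, made up of 9 of 12 mitotic cells and 3 of 9 others. It is above 0 in 3 of 11 intermediate cells, 1 low-ribosome cell and none of the astrocytes.

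Within the ribosome-rich range, the 12 mitotic cells were set against the 9 others. Of 8 members above 10 TPM in either set, 5 were at least 2-fold lower in mitotic cells and 0 higher, where 22.3% and 24.3% of 9027 genes were. Cd63 ranged from 159 to 1001 TPM in mitotic cells with a median of 250.1, and from 438 to 3073 in the others with a median of 1970.4. The means were 391 TPM (SD 292) and 1684 (SD 942), a log2 difference of -2.10, and the sets overlapped. Without the mitotic cells Cd63 in ribosome-rich cells differed from low-ribosome cells by -0.09, and its rho with the ribosomal share over the remaining SVZ cells was -0.01.

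Cd81 ranged from 43.1 to 1645 TPM in mitotic cells with a median of 269.5, and from 477 to 2744 in the others with a median of 1892. The log2 difference was -1.81. Tspan7 gave -1.48 and Tspan3 -1.19, and Cd82, present in 1 cell of each set, gave -2.89. Cd9 ranged from 407 to 905 TPM in mitotic cells and from 516 to 2361 in the others, a difference of -0.84. Tspan12 was not lower in mitotic cells (100.1 against 82.8 TPM) and was found in 11 of 12 of them and in 5 of 9 others. Mitotic cells also had more genes per cell (median 6665.5 against 4793), and 10 of the 12 were ogp. Their ribosomal share was higher as well, with a median of 10.3% (8.21% to 14.3%) against 7.27% (6.40% to 14.9%) in the others. The parts of gene number, name series and ribosomal share in these differences were not tested.

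Among themselves the abundant members followed one another unevenly. Over all SVZ cells rho was 0.61 between Cd81 and Tspan7 and 0.46 between Cd81 and Tspan3. Within low-ribosome cells these were 0.28 and 0.30. Cd9 had its highest rho with Tspan3, at 0.19, and gave 0.15 with Cd81. Cells share pooled mice and a closed sum of TPM, so these too are descriptions.

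The genes most like each member over SVZ cells were taken by the mean of the rho within ogp and within ogp2, among 4631 genes. For Cd81 they were Saraf (0.68), a regulator of store-operated calcium entry, Gja1 (0.65), the main connexin of astrocytes, and Cst3 (0.63). For Tspan7 they were the membrane glycoprotein Gpm6a (0.69), Gja1 (0.68) and Clu (0.67). Gja1, Cst3 and Clu are among the 12 astrocyte and quiescence markers. Like Cd81 and Tspan7, these genes fell with the ribosomal share, with rho of -0.63 for Saraf, -0.70 for Gja1 and -0.56 for Cst3. Gpm6a and Clu gave -0.62 each, and the part of this shared relation in the likeness was not tested. The genes most like Tspan3 were Cd81 (0.46), Tmem59 (0.45) and Itm2b (0.43), and those for Tspan12 were the zinc transporter Slc39a12 (0.42), Timp3 (0.42) and Efemp1 (0.41). Cd63 was most like Cd63-ps (0.50), a pseudogene copy at 2.06 TPM whose reads the counting may share with Cd63, then Grina (0.46) and Cmtm5 (0.43). For Cd9 the highest values were lower, with Reep5 (0.30), Selenok (0.29) and Tmbim6 (0.29).

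The genes that tetraspanins bind or travel with were described from lists. Of 17 integrins and other surface partners, 10 passed 10 TPM in ribosome-rich or low-ribosome cells, with 3 at least 2-fold higher and 4 lower in the rich cells. Over all genes 26.8% were higher and 23% lower, which holds beside every list in this comparison. Itgav averaged 15.4 against 79.9 TPM, Itgb1 averaged 120 against 46.1, Igsf8 averaged 62.3 against 45.7 and Egfr, itself a marker of activation, 200.5 against 25.8. Of 18 late endosome and exosome genes 13 passed, with 0 higher and 3 lower (26.8% and 23% of all genes). Lamp1, a lysosomal membrane protein, averaged 360 TPM in rich and 1050.0 in low-ribosome cells and Lamp2 averaged 143 and 349, while Rab7 (249.98 against 301) and Sdcbp, the syntenin gene (229.8 against 268), gave log2 differences of -0.27 and -0.22.

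Of the 11 genes for Adam10 and Notch cleavage, 11 passed in the same comparison, with 0 higher and 2 lower (26.8% and 23% of all genes). Psenen averaged 225 TPM in rich and 195 in low-ribosome cells, and Ncstn averaged 51.4 and 50.3. Of 5 Norrin and Wnt7 genes that passed, 1 was higher and 3 lower (26.8% and 23% of all genes). Ctnnb1 averaged 243 TPM against 52.1, and Ndp 22.4 against 81.2. Of the other tetraspanins 9 passed, with 3 higher and 6 lower (26.8% and 23% of all genes). Tspan15 averaged 8.27 TPM in rich and 136 in low-ribosome cells, a log2 difference of -3.89, and Tspan31 and Tspan14 gave -1.19 and -1.04. Tspan6 went the other way, at 168 against 53.4 TPM, a difference of 1.63.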

How the data were processed

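Single-cell values of 150 cells were deposited as TPM by the authors, with 43309 gene identifiers. Per the submitters' processing notes, the tools were RSEM 1.2.18 and STAR 2.4.0g1 and the build was mm10. The gene annotation is not given in the sources used here. The 18 population libraries were not analysed here. Identifiers took symbols from the reference table (42425 matched, and the identifier with the highest mean was kept where symbols were shared, leaving 42405). In 5 ogp cells the listed genes summed to 66189 to 309864 TPM, and each cell was rescaled to 1000000. Analysis used Python 3.11.15 with pandas 2.3.3, numpy 2.4.6 and scipy 1.17.1, with positions and coding sequences from GENCODE M21.

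Group means were compared as log2 of (mean TPM + 1), with a pseudocount of 1 TPM, genes at 10 TPM in either group and a limit of 2-fold. Detection meant 1 TPM. No doublet caller was run on these hand-picked cells. Alternatives changed the pseudocount, filter, scaling, averaging, ranges and cells. The calculation was tested on simulated data, with fold changes planted only in genes found in most SVZ cells. It therefore does not cover members found in few cells, such as Cd82, Cd151 and Tspan33.

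The members and gene lists were chosen with earlier results of these data known. All 9 members were named, as were the 4 genes per list with the highest SVZ mean and the 3 most alike genes for members detected in 30% of SVZ cells. A gene that this rule would name is not reported here.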

Additional observations from a re-analysis of the deposited data

Results flagged for a closer look

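In the 4 cortex cells, 1 cell stood far from the other 3 by Dixon's criterion for 3 of the 7 members examined. The criterion flags about 1 in 20 groups of normally distributed values, which single-cell TPM with zeros are not. A gene found in only 1 of 4 cells is always flagged, so these flags only describe the values. Cd9 was 606.45 TPM in OCx1 and at most 6.58 TPM in the others. Cd151 was 44.18 TPM in OCx1 and listed at 0 in the others. Tspan12 was 238.31 TPM in OCx24 and at most 1.61 TPM in the others.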

How the results depend on the processing

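With logs averaged over cells, 1 member (Cd151) was at least 2-fold higher in striatum than in SVZ cells (12.9% of all genes). In cortex 3 members were then at least 2-fold lower than in SVZ cells (28% of genes), with a median of -0.57. The median of ribosome-rich against low-ribosome cells was then -0.99, where 58.1% of genes were at least 2-fold higher and 8.47% lower. Against ogp cells alone, 2 members were at least 2-fold lower in striatum (31% of genes). With limits of 4% and 8% the median of rich against low cells was -2.43. Cd82 reversed to 0.36 in ogp2 cells alone. Leaving out each cortex cell in turn, 5 to 6 members were lower in cortex than in SVZ cells (48.2% to 49.5% of genes) with medians from -1.64 to -1.50, and 4 to 6 were higher in striatum than in cortex (43% to 44.4% of genes) with medians from 0.83 to 1.69. The count of members lower in ribosome-rich cells ran from 4 to 8 over its alternatives, and the share of all genes from 8.47% to 27.3%. No paired analysis was possible because the numbers in the labels only name cells and no result comes from a test. Depth is unknown, 4 cortex cells give wide intervals, and a listed 0 can be a failed detection.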
